A study of Homo sapiens with 6 samples.

Results

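The fragments described here are the shortest 5' tRFs, pieces of transfer RNA (tRNA) that begin at its 5' end and stop 16, 17 or 18 bases further on, at or just after the sites where DUS1L acts. They were taken by structural type and length alone, and the mitochondrial tRNA-Met fragments were left out. That gave 104 of the 3443 fragments in the table, among 360 5' tRFs in all. Counts came from small RNA sequencing of the human melanoma line A375, with 3 wild-type libraries and 3 from cells whose DUS1L gene was knocked out by CRISPR/Cas9. Knockout cells passed through clonal selection, and wild-type cells were grown beside them without targeting. Small RNA counts do not show the DUS1L transcript, so the knockout could not be checked here. How many clones the knockout libraries represent was not stated in the labels, so the spread measured is that between libraries, and an effect of 1 clone cannot be told apart from that of the knockout.

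Dihydrouridine synthases reduce uridine in tRNA to dihydrouridine, a base that no longer stacks well and gives the D-loop its name and its flexibility. DUS1L is the human enzyme for the uridines at positions 16 and 17 of cytoplasmic tRNAs. These positions lie just before the paired guanosines G18 and G19, which hold the D-loop against the T-loop. Some tRNAs, among them those for Val, Gly, Glu, Leu and Ser shown here, have no base at position 17, so that in them the base counted here as 17 is G18. A rare fragment of the tRNA-Leu family, tRF-17-SP58302 with 7 counts, has A there instead. The tRNAs for Tyr, Ile and Phe have a U at position 17, and tRNA-Lys-TTT has a C there.

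The fragments on which the results turn are given first, 5' to 3', with T for U, in lower case up to base 15 and in capitals from base 16 to the 3' end. The first pair ends at U17 and is shown because such fragments were rare in wild-type libraries:
tRF-17-6S7P4PQ: ggccggttagctcagTT
tRF-17-PUDP4PQ: gccgaaatagctcagTT
The next 4 end at U16, and the first 3 of them rose:
tRF-16-79MP9PE: gtttccgtagtgtagT
tRF-16-PS5P4PE: gcccggatagctcagT
tRF-16-OUR830E: gacgaggtggccgagT
tRF-16-87R8WPE: tccctggtggtctagT
The following pair of tRNA-Val fragments ends at G18 and G19 and gives the neighbouring ends of tRF-16-79MP9PE:
tRF-17-79MP9PP: gtttccgtagtgtagTG
tRF-18-79MP9P04: gtttccgtagtgtagTGG
The last 3 come from mitochondrial tRNAs, and the first and second of them fell:
tRF-17-J09PNO2: cagagtgtagcttaaCA
MT-TE, 18 nt: gttcttgtagttgaaATA
tRF-17-V29K9UO: taggatggggtgtgaTA

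In the GRCh38 annotation, tRF-17-6S7P4PQ matched the first bases of TRI-AAT4-1 (tRNA-Ile, chr17:8226991-8227064, minus strand) and tRF-17-PUDP4PQ those of TRF-GAA1-5 (tRNA-Phe, chr13:94549650-94549722, minus strand). The fragments that begin gtttccgtagtgtag matched TRV-CAC1-1 (tRNA-Val, chr1:161399700-161399772, minus strand). The tRNA-Glu fragment tRF-16-87R8WPE matched TRE-TTC3-1 (chr1:16872583-16872654, plus strand) and a pair of further TRE-TTC genes. The mitochondrial fragments came from MT-TV (tRNA-Val, MT:1602-1670, plus strand), MT-TE (tRNA-Glu, MT:14674-14742, minus strand) and MT-TQ (tRNA-Gln, MT:4329-4400, minus strand). Other tRNA genes can share these first bases, since the search covered 51 of 443 nuclear tRNA genes and the 22 mitochondrial ones. Fragments tRF-16-PS5P4PE and tRF-16-OUR830E had no match among them, and their sequences are the known 5' ends of tRNA-Lys-TTT and tRNA-Ser-GCT, an identity from general knowledge.

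Library totals ranged from 15742 to 32754 counts, and the short 5' tRFs took 236 to 857 of them. Wild-type replicate 3 stood apart from its group. There the short 5' tRFs made up 3.90% of all counts, against 1.39% and 1.499% in wild-type replicates 1 and 2 and 3.11%, 3.97% and 3.72% in knockout replicates 1 to 3. Its counts differed more from the other wild-type libraries (chi-square per degree of freedom of 8.22 and 5.83) than these did from each other (2.75). No pair of libraries in a group agreed within sampling noise (2.56 or more). Where a call or direction below rests on wild-type replicate 3, the value without it stands beside it, and what sets it apart was not tested.

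The 104 fragments held 3553 counts over the 6 libraries and fell into 56 families that share their first 15 bases. Fragments of 16 nt were the most frequent, with 50 sequences and 57.3% of these counts, against 32 sequences and 35.8% for 17 nt and 22 sequences and 6.87% for 18 nt. In 15 families all 3 lengths were seen. Base 16, which can be a DUS1L site where it is a U, was T in 62 fragments with 69.6% of the counts, C in 17 with 26.7%, G in 14 and A in 11. Of the 54 fragments long enough to show base 17, 26 had G there, 19 had T, 5 had A and 4 had C. Mitochondrial tRNAs gave 26 of the 104 fragments and 15.2% of the counts. Counts were concentrated: the tRNA-Val family of TRV-CAC1-1 and the tRNA-Tyr family together held 56.1% of them. At the other end, 27 fragments were seen as 1 single count, and 23 were seen in all 6 libraries.

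Fragments of 17 nt that end at U17 were rare in wild-type libraries and higher in the knockout. The table holds 4 nuclear ones whose bases 16 and 17 are TT or CT, from tRNA-Tyr, tRNA-Ile and tRNA-Phe, which were named after their values were seen. Summed, they had 1, 1 and 3 counts in the wild-type libraries (replicates in order, as throughout) against 29, 30 and 24 counts in the knockout libraries. Each knockout library lay far above every wild-type library. In counts per 1e6 (CPM, with edgeR's TMM scaling) the sum rose from 81.6 ± 58.1 to 1421 ± 370 (SD, n = 3 each), a log2 fold change of 4.09 (SE 0.508, edgeR quasi-likelihood test, adjusted p = 2.18e-04). The fragments were joined with their values known, and the sum passed the low-count filter through the knockout libraries alone. Its p-values, here and below, are therefore no independent support for a rise. In the table that holds this sum, 26.3% of rows were called higher and 55.6% in either direction. Left-out libraries, scalings, filters, a replicate block and DESeq2's Wald test moved that log2 fold change between 3.63 and 4.86, with no adjusted p above 0.00319. The highest of these came without wild-type replicate 3.

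The most frequent of the 4 was a tRNA-Tyr fragment with T at bases 16 and 17. It had 0 counts in all 3 wild-type libraries against 14, 13 and 10 counts in the knockout. Set against the limit of 3 counts that a total of 0 in 66923 allows, it was at least 13.8-fold higher in the knockout if its 37 knockout counts are taken as exact. The exact 95% lower limit that also covers the counting error of the 37 was 10.7-fold. The other tRNA-Tyr form, which has C at base 16 and T at base 17, had 1, 0 and 2 counts in wild-type and 7, 8 and 6 counts in knockout libraries. Its ratio of 7.82 had a 95% counting interval of 2.33 to 40.9 (exact, conditional on the total). The tRNA-Phe fragment tRF-17-PUDP4PQ had 0, 0 and 1 counts in wild-type and 4, 6 and 5 counts in knockout libraries, and the tRNA-Ile fragment tRF-17-6S7P4PQ had 0, 1 and 0 counts and 4, 3 and 3 counts. Their ratios were 16.8 (2.58 to 705) and 11.2 (1.59 to 485). In each of the 4, all knockout libraries were above all wild-type libraries, which their choice by value favoured. How often other fragments as rare were so apart was not counted. Without tRNA-Tyr the ratio over the other two was 14.0 (3.48 to 122). Such intervals cover counting error only, and the labels name no molecular identifiers. None of the 4 passed the low-count filter alone.

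Other lengths from these tRNAs, or from nuclear fragments with the same bases 16 and 17, gave the following values, and the difference between ends was not tested. Of the same 3 families, the 16 nt fragments, which stop at base 16, had 437 wild-type and 458 knockout counts, a ratio of 1.17 (1.02 to 1.34 by counting error alone). Wild-type replicate 3 held 283 of these counts, and the ratio was 2.41 without it and 0.773 without wild-type replicate 1, so that no direction can be read from it. Nearly all of these counts came from tRNA-Tyr. The tRNA-Ile fragment tRF-16-6S7P4PE had 0, 1 and 1 wild-type counts and 5, 4 and 3 knockout counts, a ratio of 6.70 (1.49 to 61.7). The tRNA-Phe fragment tRF-16-PUDP4PE had 0, 0 and 0 counts and 3, 1 and 0 counts. At 18 nt, nuclear fragments with TT at bases 16 and 17 had 0, 0 and 0 wild-type counts and 0, 4 and 2 knockout counts. Those with CT had 2, 0 and 0 counts and 0, 1 and 1 counts. Nuclear 5' fragments of 19 nt or more with TT or CT at bases 16 and 17 were counted from any tRNA. They had 25, 1 and 6 wild-type counts and 2, 7 and 7 knockout counts, a ratio of 0.558 (0.286 to 1.05). Wild-type replicate 1 held most of them, and without it the ratio was 1.30 (0.507 to 3.75). Among the 2 lengths of the tRNA-Tyr form with T at base 16, the 17 nt fragment took 0% in every wild-type library and 25.5%, 14.6% and 16.4% in the knockout. For the form with C at base 16 the corresponding shares were 1.47%, 0% and 1.00% in wild-type and 8.24%, 9.09% and 4.92% in knockout libraries. In both comparisons the groups did not overlap, and the two-sided exact permutation test gave its smallest possible p for 3 against 3 libraries, 0.1 (adjusted over 9 such shares, 0.225).

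Both 16 nt fragments of tRNA-Tyr were abundant, and their values depended on wild-type replicate 3. The form with C at base 16 had 67, 38 and 198 counts in wild-type and 78, 80 and 116 counts in knockout libraries. The form with T at base 16 had 32, 16 and 84 counts and 41, 76 and 51 counts. In both, wild-type replicate 3 was the highest library of its group and the groups overlapped. With all libraries neither passed the threshold (log2 fold changes -0.07, SE 0.472, and 0.48, SE 0.505, edgeR adjusted p = 0.903 and 0.444). Without wild-type replicate 3 both were higher in the knockout (0.96 and 1.44, edgeR adjusted p = 0.00845 and 0.00903).

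Of the 104 fragments, 13 passed the low-count filter, and they held 75.7% of the counts. Of these, 3 were higher and 2 lower in the knockout at an adjusted p under 0.05 by edgeR's quasi-likelihood test, adjusted over all 235 fragments tested. Of all 235, 25.5% were called higher and 28.1% lower, so the counts of 3 and 2 among 13 were near or below the background of the table. In CPM, 4 lay wholly above and 2 wholly below the wild-type libraries, where 28.1% and 30.6% of all fragments tested did so. Their median log2 fold change was 0.70, against -0.01 over all fragments tested. Without wild-type replicate 3, 16 were tested and 9 were higher, where 31.1% of the 270 fragments tested in that fit were called higher. All 3 that rose were nuclear 16 nt fragments ending at U16, and both that fell were mitochondrial. The low-count filter admits a fragment that is frequent in 1 group alone, and a call of such a fragment is not independent of its admission. Among those called, tRF-16-OUR830E reached the filter's level in the knockout libraries alone, and tRF-16-PS5P4PE there and in wild-type replicate 3. The MT-TE fragment of 18 nt reached it in wild-type libraries alone.

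The 16 nt fragment of tRNA-Val, tRF-16-79MP9PE, had 28, 11 and 21 counts in wild-type and 96, 83 and 109 counts in knockout libraries. The groups were far apart and the knockout libraries close to each other, at 898 ± 146 and 4779 ± 110 CPM. On the log2 scale it rose by 2.39 (SE 0.261, edgeR adjusted p = 1.26e-04). The fragment 1 base longer, tRF-17-79MP9PP, had 18, 11 and 143 counts in wild-type and 119, 111 and 202 counts in knockout libraries. Wild-type replicate 3 lay inside the knockout range, and the log2 fold change, 1.37 with an SE of 0.698, did not pass (edgeR adjusted p = 0.119). Without that library it was 3.45 (edgeR adjusted p = 6.83e-05). The fragment of 18 nt, tRF-18-79MP9P04, had 24, 14 and 12 counts in wild-type and 13, 14 and 21 counts in knockout libraries, with a log2 fold change of 0.04 (with SE 0.344, adjusted p = 0.919 by edgeR). Of these 3 neighbouring ends, that at U16 passed, that at G18 overlapped through 1 library, and that at G19 overlapped with a value near 0. The 3 changes were not tested against each other. Of the 3 lengths together, the 16 nt fragment took 40.0%, 30.6% and 11.9% in wild-type libraries. In the knockout it took 42.1%, 39.9% and 32.8%, which overlapped (exact permutation p = 0.3, adjusted 0.386). The share of 17 nt overlapped as well. That of 18 nt was lower without overlap, at 34.3%, 38.9% and 6.82% against 5.70%, 6.73% and 6.325% (exact permutation p = 0.1, adjusted 0.225).

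The tRNA-Lys-TTT fragment tRF-16-PS5P4PE had 5, 5 and 11 counts in wild-type and 40, 34 and 56 counts in knockout libraries, without overlap. Its level rose by 2.67 on the log2 scale (SE 0.390, edgeR adjusted p = 3.48e-04). The form that goes on to C17, tRF-17-PS5P4P5, had 7, 4 and 10 counts in wild-type and 16, 3 and 9 counts in knockout libraries, which overlapped and were too few to test. The shorter form thus took 41.7%, 55.6% and 52.4% of both in wild-type and 71.4%, 91.9% and 86.1% in the knockout (exact permutation p = 0.1, adjusted 0.225). The tRNA-Ser-GCT fragment tRF-16-OUR830E had 4, 5 and 2 counts in wild-type and 14, 13 and 13 counts in knockout libraries. It rose by 1.92 on the log2 scale (SE 0.488, edgeR adjusted p = 0.00818), and this call was lost when knockout replicate 1 was left out (edgeR adjusted p = 0.0507). It passed the low-count filter through the knockout libraries alone. The tRNA-Glu fragment tRF-16-87R8WPE, with 7, 2 and 15 counts and 12, 9 and 23 counts, overlapped between groups and did not pass (log2 fold change 0.94 with SE 0.537, adjusted p = 0.159 by edgeR). Without wild-type replicate 3 its log2 fold change was 1.86 (edgeR adjusted p = 0.00859).

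Another tRNA-Val fragment, tRF-17-Q99P9PP (gcttctgtagtgtagTG), is shown because it ends at the same base as the 17 nt fragment of TRV-CAC1-1. Its sequence is the known 5' end of another tRNA-Val, an identity from general knowledge. It had 3, 1 and 32 counts in wild-type and 32, 24 and 35 counts in knockout libraries, and wild-type replicate 3 again sat among the knockout libraries. A log2 fold change of 1.40 with an SE of 0.733 (edgeR adjusted p = 0.127) became 4.03 without that library (edgeR adjusted p = 1.04e-04).

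Mitochondrial tRNAs are made and modified inside the organelle. Of their 26 short 5' fragments, 4 could be tested. From MT-TV, tRF-17-J09PNO2 had 41, 29 and 40 counts in wild-type and 6, 13 and 19 counts in knockout libraries, without overlap. It fell by 1.45 on the log2 scale (SE 0.381, edgeR adjusted p = 0.00883). From MT-TE, the 18 nt fragment had 19, 12 and 12 counts in wild-type and 0, 5 and 2 counts in knockout libraries, again without overlap, and fell by 2.44 on that scale (SE 0.661, edgeR adjusted p = 0.0101). That call was lost without knockout replicate 1 or 3 (edgeR adjusted p = 0.0686 and 0.0655), and the log2 fold change ran from -1.74 without knockout replicate 1 to -3.65 without knockout replicate 2. This fragment passed the low-count filter through the wild-type libraries alone. The MT-TQ fragment tRF-17-V29K9UO had 20, 12 and 14 counts and 23, 21 and 26 counts. In CPM its groups did not overlap, and its log2 fold change of 0.70 (SE 0.303) did not pass the threshold (edgeR adjusted p = 0.0679, and 0.0422 with DESeq2's size factors). The MT-TK fragment tRF-16-2YU04DE (cactgtaaagctaacT), from the mitochondrial tRNA for lysine, had 8, 4 and 10 counts and 11, 10 and 9 counts, which overlapped (log2 fold change 0.55 with SE 0.425, adjusted p = 0.297 by edgeR).

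Summed over the first 15 bases, 12 families had enough counts to test. Of these, 4 were higher and 2 lower, where 27.1% and 30.9% of the 188 rows of that table were called (58% in either direction). The tRNA-Val family of TRV-CAC1-1 rose with a log2 fold change of 1.51 (with SE 0.426, adjusted p = 0.00927 by edgeR), from 70, 36 and 176 counts to 228, 208 and 332 counts. The call was lost when wild-type replicate 2 was left out (edgeR adjusted p = 0.0654), as it was for knockout replicate 2 (0.0541), and the log2 fold change was 2.39 without wild-type replicate 3. Its 5' fragments of 19 nt or more did not pass (log2 fold change 0.08 with SE 0.271, adjusted p = 0.796 by edgeR). The family of tRNA-Lys-TTT rose by 1.95 on that scale (SE 0.335), that of tRNA-Ser-GCT by 1.99 (SE 0.440) and that of MT-TQ by 0.81 (SE 0.278), at adjusted p of 5.11e-04, 0.00258 and 0.0227 by edgeR. The call for MT-TQ was lost with no low-count filter (edgeR adjusted p = 0.102) and with DESeq2's Wald test (adjusted p = 0.0662). The family of MT-TV fell by 1.45 (SE 0.329, edgeR adjusted p = 0.00298), and that of MT-TE fell by 2.05 (SE 0.572, edgeR adjusted p = 0.00856), a call lost without knockout replicate 1 (0.112) or 3 (0.0921). The log2 fold change of the MT-TE family ran from -1.38 without knockout replicate 1 to -3.10 without knockout replicate 2. This sum passed the low-count filter through wild-type libraries alone, and that of tRNA-Ser-GCT through knockout libraries alone. The 6 others, of tRNA-Tyr, tRNA-Glu, the other tRNA-Val, tRNA-Leu, MT-TK and the less frequent tRNA-Gly of tRF-16-P4R8YPE, did not pass, with log2 fold changes from -0.46 to 1.36. Of these, 3 passed without wild-type replicate 3, namely tRNA-Tyr (log2 fold change 1.25, edgeR adjusted p = 0.00244), tRNA-Glu (1.71, 0.00434) and the other tRNA-Val (3.74, 2.98e-05). In that fit 7 of the families were higher, where 31.1% of the rows of its table were called higher.

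How much of a tRNA's 5' fragments was this short differed widely between families. Of 12 families with at least 20 counts of 5' fragments in every library, the short forms took 94.7% ± 6.48 of wild-type counts in tRNA-Tyr and 0.0914% ± 0.0216 in the tRNA-Gly-GCC family of TRG-GCC2-1 (SD, n = 3). In 3 of the 12 families (25%) the short share was higher in every knockout library than in every wild-type library, and in 2 (16.7%) it was lower. Without wild-type replicate 3 it was higher in 5. For the tRNA-Val family it was 3.81%, 3.88% and 8.94% in wild-type and 14.4%, 14.2% and 15.4% in knockout libraries. For TRG-GCC2-1 it went from 0.0914% ± 0.0216 to 0.208% ± 0.0406, and for tRNA-Gly-TCC (TRG-TCC1-1) from 2.07% ± 1.02 to 5.31% ± 1.86. It was lower in the less frequent tRNA-Gly, at 6.09% ± 1.90 and 3.10% ± 0.586, where the longer 5' fragments rose (log2 fold change 1.37 with SE 0.294, adjusted p = 0.00219 by edgeR). In MT-TV it was 68.0%, 79.5% and 91.8% in wild-type and 17.2%, 43.9% and 50.0% in knockout libraries, as its 5' fragments of 19 nt or more rose (log2 fold change 1.38 with SE 0.460, adjusted p = 0.0210 by edgeR) while the short ones fell. For these 5 the exact permutation test gave p = 0.1, or 0.24 when adjusted over the 12.

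A test of each fragment against the others that begin alike, which cancels scaling between libraries, covered 7 of the short 5' tRFs in 4 families. Relative to its family, tRF-16-79MP9PE was higher by 2.15 on the log2 scale (SE 0.480, edgeR diffSpliceDGE adjusted p = 0.00111) and tRF-16-87R8WPE by 1.504 (SE 0.476, adjusted p = 0.0235). None was lower. Over the 147 fragments tested, 8.16% were higher and 5.44% lower than their family. The tRNA-Glu call was lost in 6 of 12 alternatives, 5 of them single libraries left out, with adjusted p from 0.121 to 0.404, and its value was 2.58 without wild-type replicate 3. In the fit without that library 4 of the short 5' tRFs were higher than their family, where 12.6% of the fragments tested were. For tRF-17-79MP9PP the relative log2 fold change was 1.13 (SE 0.440, adjusted p = 0.0774) and 2.94 without wild-type replicate 3 (adjusted p = 4.02e-11). That of tRF-17-J09PNO2 was -1.27 (SE 0.529, adjusted p = 0.147).

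Grouped by the bases at the end, the nuclear 16 nt fragments with T at base 16 had 119, 63 and 160 counts in wild-type and 253, 256 and 291 counts in knockout libraries. All knockout libraries were above all wild-type libraries, and the sum of these 25 fragments rose by 1.34 on the log2 scale (SE 0.308, edgeR adjusted p = 0.00488). Most of that rise came from the 3 fragments called above, which went from 92 to 458 counts. The other 22 had 82, 42 and 126 counts in wild-type libraries against 103, 126 and 113 in the knockout, and their shares of all counts overlapped through wild-type replicate 3 (0.684%, against 0.490% to 0.785% in the knockout). The nuclear 16 nt fragments with C at base 16, with most of their counts from tRNA-Tyr, had 86, 44 and 219 counts and 86, 85 and 136 counts, with overlap and a log2 fold change of -0.11 (with SE 0.461, adjusted p = 0.843 by edgeR). Without wild-type replicate 3 it was 0.87 (edgeR adjusted p = 0.0128). The difference between the T and C groups was not tested. The 17 nt fragments with TG at bases 16 and 17, which end at G18, had 45, 14 and 183 counts and 170, 155 and 255 counts (log2 fold change 1.34 with SE 0.632, adjusted p = 0.0934 by edgeR, and 2.98 without wild-type replicate 3, edgeR adjusted p = 7.60e-05). Those of 18 nt with TG overlapped, at 37, 21 and 18 counts and 22, 21 and 39 counts (0.22, SE 0.304, edgeR adjusted p = 0.565). The nuclear fragments of 17 nt with TT alone had 2 wild-type and 62 knockout counts, a ratio of 34.6 (9.19 to 292, edgeR adjusted p = 2.87e-04, and at most 0.00416 with any 1 library left out). This sum, too, passed the low-count filter through the knockout libraries alone, and its fragments were named with their values known. Of the 10 groups that could be tested, 2 were higher and 3 lower, where 26.3% and 28.9% of the rows of that table were called (55.2% in either direction). The 3 lower groups were all mitochondrial, with CA at bases 16 and 17 of 17 nt (log2 fold change -1.44, edgeR adjusted p = 0.00841), AT of 18 nt (-2.46, 0.00928) and C at base 16 of 16 nt (-1.04, 0.0430). The call of the last was lost in 11 of its 13 alternatives (edgeR adjusted p of 0.0594 or more, and DESeq2 adjusted p = 0.255), and that of AT without knockout replicate 1 (0.0622) or 3 (0.0654). The AT group is mostly the MT-TE fragment, and its log2 fold change ran from -1.75 without knockout replicate 1 to -3.60 without knockout replicate 2. It passed the low-count filter through wild-type libraries alone. Without wild-type replicate 3, 4 groups were higher, where 29.9% of the rows of that table were called higher.

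As a share of all counts, the short 5' tRFs took 2.26% ± 1.42 of the wild-type and 3.60% ± 0.439 of the knockout libraries (SD, n = 3, exact permutation p = 0.3, or 0.369 adjusted over 16 shares). Those with T at base 16 took 0.763%, 0.794% and 2.18% in wild-type and 2.55%, 3.13% and 2.88% in knockout libraries, without overlap (exact permutation p = 0.1, adjusted 0.267). Those with C at base 16 took 0.886% ± 0.621 and 0.679% ± 0.130 and overlapped (exact permutation p = 0.9). Those with A at base 16 were lower without overlap, at 0.0824%, 0.0826% and 0.0868% in wild-type libraries against 0.0192%, 0.0499% and 0.0390% in the knockout (exact permutation p = 0.1, adjusted 0.267). The MT-TE fragment held 43 of their 56 wild-type and 7 of their 21 knockout counts.

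The remaining 91 fragments, with 24.3% of the counts, were too rare to test alone, and 63 of them had fewer than 10 counts in all 6 libraries together. Of the 28 with more, the 5 with the most counts were tRF-16-P4R8YPE (12, 6 and 9 wild-type counts, then 17, 8 and 12 knockout counts), tRF-17-PS5P4P5 (given above), tRF-16-J09PNOD of MT-TV (12, 6 and 16, then 4, 5 and 3), tRF-16-V29K9UE of MT-TQ (8, 3 and 4, then 12, 8 and 11) and tRF-16-SP5830D of tRNA-Leu (8, 3 and 13, then 5, 2 and 13). In CPM the MT-TV fragment did not overlap between groups and was lower in the knockout, as its 17 nt form was. In CPM the tRNA-Gly fragment (412, 399 and 429, then 836, 473 and 518) and the MT-TQ fragment (275, 199 and 191, then 590, 473 and 475) were higher in every knockout library, and the tRNA-Leu fragment overlapped. Among the rarer ones, 25 fragments with 55 counts were seen in wild-type libraries alone and 18 with 67 counts in knockout libraries alone, 37 of these from the tRNA-Tyr fragment with T at bases 16 and 17. The matching shares among all 3443 fragments were not counted. Of the 104 short fragments, 27 had a single count in all, which falls in 1 group by necessity. The 3 short fragments of tRNA-Pro (TRP-CGG1-3 and genes with the same first bases) were of the first kind, with most of their counts in wild-type replicate 1.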

How the data were processed

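Read counts per tRNA-derived fragment, raw and not normalized, were deposited by the authors, who assigned reads to tRNA with MINTmap per the series' design text; FastQC, cutadapt, DESeq2 and GRCh38 (hg38) are named in the submitters' processing notes, without versions. Fragment identifiers, which encode the sequence, were decoded, and 5' ends were matched exactly to tRNA genes read from RefSeq and GENCODE sequences of GRCh38. Fragments were filtered by filterByExpr (minimum count 10), scaled with edgeR's TMM factors and compared by the quasi-likelihood test of edgeR 4.0.16 in R 4.3.3, knockout minus wild-type, two-sided, with Benjamini-Hochberg adjustment over the whole table. The same test was run on tables with sums over the first 15 bases and, added after seeing the data, over origin, length and bases 16 and 17. DESeq2 1.42.0 was an alternative. Named were all fragments and family sums that passed the filter and the 5 most frequent below it. Outside that rule and after their values were seen, the 17 nt fragments ending at U17, the tRNA-Pro fragments and some other rare fragments were named. Count ratios with libraries left out were also added after seeing the data. The fragments and groupings were chosen with earlier results of these data known. On simulated counts, 31.2% of 2-fold, 100% of 4-fold and 94.4% of 8-fold changes were recovered among 260 fragments tested. Of 211 unchanged ones, 0% were called. The simulation covered the whole table, gave all fragments the same spread between libraries and held no outlying library. It therefore does not measure recovery or false calls for the short fragments. Depth was 15742 to 32754 counts per library, and confidence intervals are exact. Sequences of the tRNA-Tyr fragments are not shown here.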

Additional observations from a re-analysis of the deposited data

How the results depend on the processing

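Depth limits these results, as most of the short fragments had too few counts to test. In simulation over the whole table, 31.2% of 2-fold changes of single fragments were recovered (56.2% for family sums). The count of fragments higher in the knockout was 3, and 8 with no low-count filter (104 tested, where 1.74% of all fragments were called higher) or 6 with a minimum count of 5 (23 tested, 21.6% of all). Leaving out single libraries gave 2 to 9 higher and 1 to 2 lower fragments, 3 to 7 higher and 1 to 2 lower family sums, 1 to 4 fragments higher and 0 lower than their family, 2 to 4 higher and 1 to 3 lower sums by end bases, and 3 to 5 families with a higher short share and 2 to 3 with a lower one. The sums by end bases had 4 higher with DESeq2's size factors and 4 with no low-count filter. With a replicate block, 1 fragment was lower than its family (tRF-17-J09PNO2, relative log2 fold change -1.33, adjusted p = 0.0157), tRF-17-79MP9PP became higher (2.09, edgeR adjusted p = 0.0152), and 4 fragments, 6 family sums and 3 sums by end bases were higher. Whether replicate numbers pair the libraries could not be decided from so few libraries. Deviations of same-numbered libraries correlated at 0.281, 0.0117 and 0.113, and those of different numbers at -0.206 to 0.0895. Not every library correlated best with its own number. Families whose short share separated the groups were 1 higher and 1 lower when only fragments past the filter were counted, 5 and 1 for 17 nt alone, and 0 and 1 for 18 nt alone.

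Directions changed for values near 0. With DESeq2's size factors, the log2 fold change was 0.019 for the 16 nt tRNA-Tyr fragment with C at base 16 and 0.0202 for the nuclear 16 nt sum with C at base 16, and with a replicate block 0.209 and 0.145. Leaving out single libraries gave ranges of -0.428 to 0.956 for that fragment, -0.465 to 0.869 for that sum, -0.0851 to 0.301 for tRF-18-79MP9P04, -0.595 to 0.0292 for it relative to its family, and -0.0409 to 1.25 for the tRNA-Tyr sum. The highest of the first, second and last came without wild-type replicate 3. Shares of counts with C at base 16 differed by -0.407 to 0.151 percentage points, and those of nuclear 16 nt fragments by -0.223 to 0.24, the highest again without that library. Pooled count ratios ran from 0.773 to 2.41 for the 16 nt fragments of the 3 families with U17. For nuclear 5' fragments of 19 nt or more with TT or CT at bases 16 and 17, from any tRNA, they ran from 0.429 to 1.30. The cause was not tested.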
